A study of Homo sapiens with 6 samples.

Results

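The levels of 8 genes of the acute phase response and the fibrinogen family were followed in A549 cells with CBX8 knockdown: the antiproteases SERPINA3 and SERPINA1, the complement component C3, the lipocalin LCN2, the fibrinogen chains FGA, FGB and FGG, and the fibrinogen-like gene FGL1. They were taken by name, by matching the RefSeq accession of each deposited transcript to these symbols and summing per gene, and were 8 of 28452 genes in the table. The choice was made with their levels in the control, shCBX8-1 and shCBX8-2 libraries already known, so these levels and the differences between the groups are given as a description. Calls of the members in the fit over all genes are counted, but nothing is read from them. A549 is an established human lung adenocarcinoma line. All 6 libraries came from A549 cells infected with lentivirus and kept as stable lines: 2 carried the control construct, 2 are titled shcbx8-1 and 2 shcbx8-2, written here shCBX8-1 and shCBX8-2. The control shares the infection but not the hairpin against CBX8, a subunit of Polycomb repressive complex 1. What the first number after shcbx8 stands for, whether a line was 1 clone and whether cultures were separate within a group is not given in the labels, so that p-values measure only the spread between these libraries, which may be technical.

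Acute phase proteins are secreted into plasma when tissue is injured or infected, mainly by the liver under IL-6 and IL-1, which act through STAT3, C/EBP factors and NF-kB. Airway and alveolar epithelial cells also make several of them. SERPINA1 (alpha-1-antitrypsin) inhibits neutrophil elastase and SERPINA3 (alpha-1-antichymotrypsin) inhibits cathepsin G. C3 is the component on which all routes of complement activation meet. LCN2 binds iron-carrying siderophores of bacteria and is an NF-kB and C/EBP target in epithelia. FGA, FGB and FGG code for the alpha, beta and gamma chains that assemble into the clotting protein fibrinogen, and FGL1 codes for a secreted liver protein that shares the fibrinogen domain.

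The libraries held 64197784 to 67169537 estimated counts. The median absolute difference per gene between the libraries of a group was 0.116 log2 in control, 0.115 in shCBX8-1 and 0.207 in shCBX8-2. Levels are CPM, counts relative to the library total after TMM scaling. CBX8 itself measured 24.6 and 26.3 CPM in control, 7.79 and 7.70 CPM in shCBX8-1 and 17.7 and 13.8 CPM in shCBX8-2. Of 13 markers of A549 and lung epithelium, the keratin genes KRT8 and KRT18 had the highest mean level, while 3, the surfactant genes SFTPB, SFTPC and SFTPD, stayed under 1 CPM in every library, although the source label is lung. Summed CPM of 12 hepatocyte markers was 302 to 365 in control, 280 to 306 in shCBX8-1 and 381 to 417 in shCBX8-2, nearly all of it CPS1, and 9 of the 12 stayed under 1 CPM, with APOA2, APOC3 and G6PC1 at 0. Of 11 leukocyte markers 7 stayed under 1 CPM and CD3E and MPO were at 0, while summed CPM was 95.5 to 99.0 in control, 141 to 146 in shCBX8-1 and 110 to 117 in shCBX8-2, mainly CD68 and CORO1A, and the part of these markers in the results was not tested. In a bulk library, fewer cells with a transcript and less of it per cell cannot be told apart.

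The sequence before the annotated start of 5 of the genes is shown because the factors of the acute phase response act at promoters, and because the 3 fibrinogen genes lie side by side on chromosome 4. RefSeq windows of GRCh38.p14 were found for 6 of the 8 genes, and the 250 bases before the start are printed 5′ to 3′ on the gene's strand. Capitals mark matches on either strand to the motifs searched.
LCN2, chr9:128149203-128149452, strand +: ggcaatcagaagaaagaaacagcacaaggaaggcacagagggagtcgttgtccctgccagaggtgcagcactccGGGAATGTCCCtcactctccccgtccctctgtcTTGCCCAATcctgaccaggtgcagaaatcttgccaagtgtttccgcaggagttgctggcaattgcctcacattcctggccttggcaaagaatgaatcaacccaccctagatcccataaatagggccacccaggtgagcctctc
SERPINA3, chr14:94612141-94612390, strand +: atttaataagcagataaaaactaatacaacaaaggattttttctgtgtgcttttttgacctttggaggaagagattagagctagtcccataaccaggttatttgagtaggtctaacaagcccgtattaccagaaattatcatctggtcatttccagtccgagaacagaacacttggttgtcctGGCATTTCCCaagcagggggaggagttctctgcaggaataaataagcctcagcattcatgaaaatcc
FGA, chr4:154590743-154590992, strand -: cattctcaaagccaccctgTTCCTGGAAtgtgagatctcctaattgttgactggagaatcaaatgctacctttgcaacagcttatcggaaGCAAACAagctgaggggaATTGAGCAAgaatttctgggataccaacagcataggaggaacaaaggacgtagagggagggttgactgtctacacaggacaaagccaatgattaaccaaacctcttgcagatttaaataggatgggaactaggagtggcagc
FGB, chr4:154562730-154562979, strand +: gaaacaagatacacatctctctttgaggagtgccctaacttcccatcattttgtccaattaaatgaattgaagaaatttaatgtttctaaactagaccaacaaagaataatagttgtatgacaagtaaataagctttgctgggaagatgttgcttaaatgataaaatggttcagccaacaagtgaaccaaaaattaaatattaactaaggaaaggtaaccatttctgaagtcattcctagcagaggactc
FGG, chr4:154612657-154612906, strand -: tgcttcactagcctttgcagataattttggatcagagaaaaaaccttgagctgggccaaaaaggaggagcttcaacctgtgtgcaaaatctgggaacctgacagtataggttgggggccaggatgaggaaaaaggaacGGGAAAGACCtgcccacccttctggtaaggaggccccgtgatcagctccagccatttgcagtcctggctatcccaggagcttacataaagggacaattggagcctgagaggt

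The motifs were TTCNNNGAA and TTCNNGGAA (STAT), an NF-kB motif (GGGA and CC with 4 free bases between), TTGCNNCAA and TTGCNCAAT (C/EBP), TGTTTAC and TGTTTGC (FOXA) and TATAAA. They were searched on both strands from 250 bases before to 50 after the start. In LCN2 the NF-kB motif matched at -176 to -167 and, on the other strand, at -175 to -166, so that both lie on 1 site, and TTGCNCAAT matched at -143 to -135. SERPINA3 held 1 NF-kB match, at -67 to -58. FGA held both STAT motifs at -231 to -223, where they overlap, with TGTTTGC at -160 to -154 and TTGCNCAAT at -142 to -134. FGG held an NF-kB match at -112 to -103. In the windows at the gene start of FGB and SERPINA1, none of the motifs matched. Another SERPINA1 window, before a start inside the gene, held TGTTTGC at -108 to -102. Of 34943 RefSeq promoter windows, 25.6% held the NF-kB motif, 0.595% held TTGCNCAAT, 3.89% TGTTTGC, 7.66% TTCNNNGAA and 4.45% TTCNNGGAA. The remaining motifs, at 1.99% for TTGCNNCAA, 3.42% for TGTTTAC and 11.6% for TATAAA, matched in 0 of the 6 windows at the gene start. A match is a run of letters and does not show that a factor binds there.

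LCN2 and C3 were the members with the highest levels, and both stood lower in shCBX8-1 and higher in shCBX8-2 than in control. LCN2 (gene 3934, chromosome 9, 128149453 to 128153453) measured 89.3 and 104 CPM in control, 51.2 and 59.8 CPM in shCBX8-1, and 299 and 265 CPM in shCBX8-2. The groups did not overlap, and the order was shCBX8-1, control, shCBX8-2. The fitted log2 fold change against control was -0.80 ± 0.12 (SE) in shCBX8-1 and 1.55 ± 0.12 in shCBX8-2, and the shCBX8-2 mean was 5.08 times the shCBX8-1 mean.

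C3 (gene 718, chromosome 19, 6677704 to 6720650) measured 94.9 and 115 CPM in control, 51.2 and 53.7 CPM in shCBX8-1, and 262 and 235 CPM in shCBX8-2. The 3 groups stood apart in the same order as for LCN2. The log2 fold change was -1.0 ± 0.11 in shCBX8-1 and 1.25 ± 0.11 in shCBX8-2 (SE). The ratio of C3 to LCN2 CPM, a ratio of levels with no correction for length, was 1.06 and 1.11 in control. It was 1.00 and 0.897 in shCBX8-1 and 0.878 and 0.885 in shCBX8-2, so it was lower than control in every shCBX8 library. For these genes, on different chromosomes, the ratio varied less than the group means, which differed up to 4.74-fold for C3 and 5.08-fold for LCN2. Across all genes tested, 18 of 17115 (0.105%) were called lower in shCBX8-1 and higher in shCBX8-2, C3 and LCN2 among them.

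SERPINA3 had the widest gap between the groups among the members above 1 CPM in control. SERPINA3 (gene 12, chromosome 14, 94612391 to 94624053) measured 9.53 and 12.4 CPM in control, 1.06 and 0.910 CPM in shCBX8-1, and 13.8 and 11.7 CPM in shCBX8-2. Both shCBX8-1 libraries lay far below the other 4, whereas the shCBX8-2 and control libraries overlapped. The mean in shCBX8-1 was 8.98% of control, with a log2 fold change of -3.48 ± 0.21 (SE), against 0.22 ± 0.18 in shCBX8-2.

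SERPINA1, which lies in the same serpin cluster (gene 5265, chromosome 14, 94376747 to 94390635), was at 1.40 and 0.912 CPM in control, 1.17 and 1.00 CPM in shCBX8-1, and 0.804 and 0.970 CPM in shCBX8-2. Neither shCBX8 group stood apart from control. The log2 fold change was -0.10 ± 0.39 in shCBX8-1 and -0.38 ± 0.39 in shCBX8-2 (SE). Of its estimated counts 95.3% sat on accessions listed more than once, as for copies of a locus, so the level of SERPINA1 is uncertain.

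**Figure D1:**
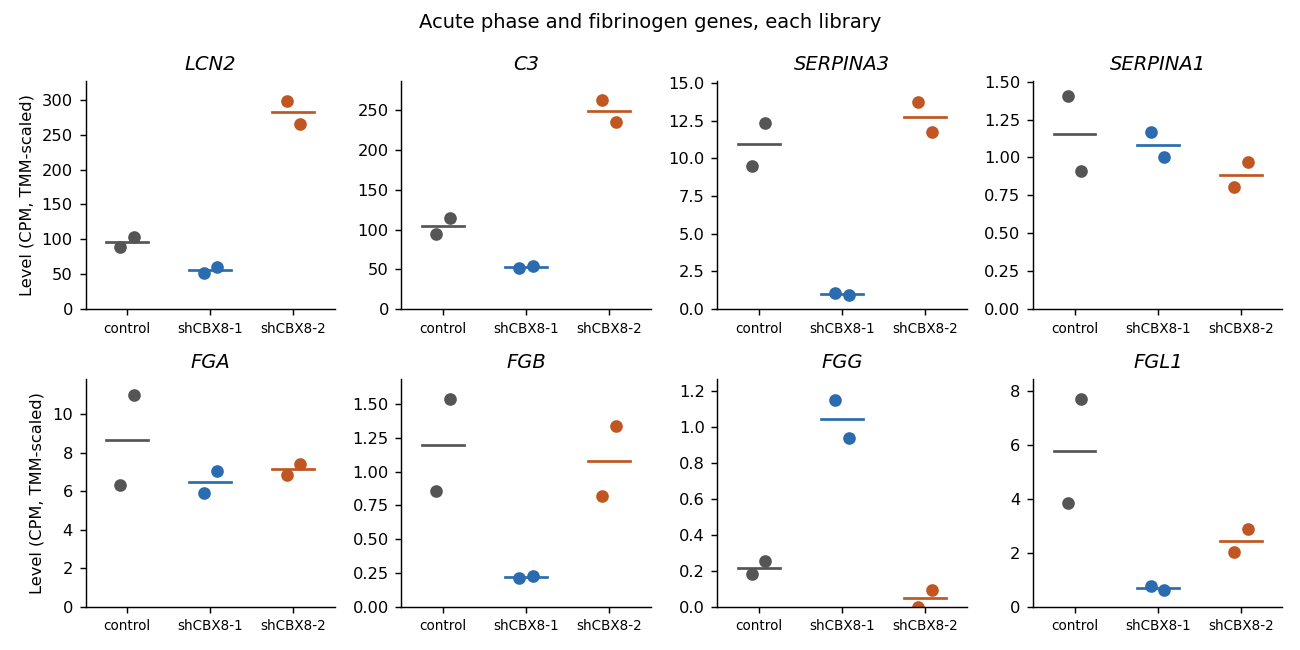
Level of each gene in CPM (linear axis from 0, a different scale for each gene) in the 6 libraries; points are libraries and bars are group means (n = 2). LCN2 and C3 are lowest in shCBX8-1 and highest in shCBX8-2, SERPINA3, FGB and FGL1 are lowest in shCBX8-1, and FGG is highest there.

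The 3 fibrinogen chains, which lie next to each other and whose products assemble in equal numbers, differed from each other in level and in pattern. FGA (gene 2243, chromosome 4, 154583126 to 154590742) measured 6.32 and 11 CPM in control, 5.90 and 7.08 CPM in shCBX8-1, and 6.87 and 7.44 CPM in shCBX8-2. All groups overlapped, and the control libraries, 1.75-fold apart, differed more than any of the group means did. Log2 fold changes were -0.42 ± 0.27 in shCBX8-1 and -0.28 ± 0.27 in shCBX8-2 (SE), and both turned positive without control 2 (0.05 and 0.17).

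FGB (gene 2244, chromosome 4, 154562980 to 154572807) measured 0.859 and 1.54 CPM in control, 0.215 and 0.227 CPM in shCBX8-1, and 0.820 and 1.34 CPM in shCBX8-2. These are 57 and 103, 14 and 15, and 52 and 84 estimated counts. The shCBX8-1 libraries lay below the other 4, and shCBX8-2 overlapped control. The log2 fold change was -2.43 ± 0.53 in shCBX8-1 and -0.15 ± 0.48 in shCBX8-2 (SE), the latter positive without control 2 (0.32) or shCBX8-2 replicate 1 (0.17).

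FGG (gene 2266, chromosome 4, 154604136 to 154612656) ran the other way at very low counts: 12 and 17 counts in control, against 75 and 62 in shCBX8-1, and then 0 and 6 in shCBX8-2. In CPM these were 0.181 and 0.254, 1.15 and 0.940, and 0 and 0.0954. The groups did not overlap, with shCBX8-1 highest and shCBX8-2 lowest. The log2 fold change was 2.25 ± 0.99 in shCBX8-1 and -2.15 ± 1.13 in shCBX8-2 (SE). Without shCBX8-2 replicate 1, which had 0 counts, the shCBX8-2 value was -1.16, and without replicate 2 it was -6.85, so its size rests on single libraries.

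The ratio of FGA to FGB CPM was 7.35 and 7.17 in control and 8.38 and 5.57 in shCBX8-2, but 27.5 and 31.1 in shCBX8-1. Summed over the 3 chains, the control libraries had 7.36 and 12.8 CPM, those of shCBX8-1 7.27 and 8.25 CPM and those of shCBX8-2 7.69 and 8.87 CPM, and the groups overlapped. The sum hid the opposite order of FGB and FGG, since most of it was FGA.

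FGL1 (gene 2267, chromosome 8) was lower than control in both shCBX8 groups. It measured 3.83 and 7.68 CPM in control, 0.751 and 0.622 CPM in shCBX8-1, and 2.02 and 2.86 CPM in shCBX8-2. The 3 groups did not overlap, in the order shCBX8-1, shCBX8-2, control, though the control libraries differed 2.01-fold. The log2 fold change was -3.06 ± 0.41 in shCBX8-1 and -1.24 ± 0.37 in shCBX8-2 (SE). Without control 2, the higher control library, these were -2.46 and -0.66.

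**Figure D2:**
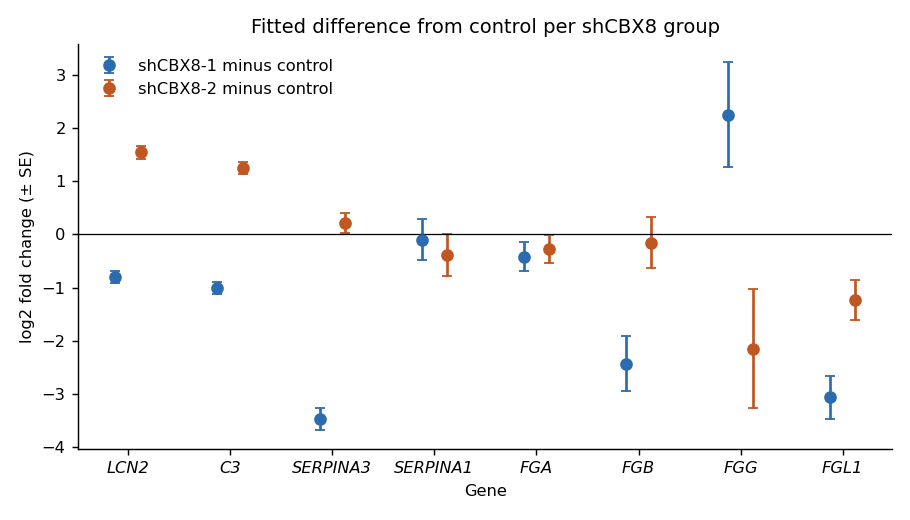
Fitted log2 fold change against control of each gene, with its standard error, for shCBX8-1 (blue) and shCBX8-2 (orange); both share the 2 control libraries. LCN2, C3 and FGG have values of opposite sign in the 2 groups, SERPINA3 and FGB are far from 0 in shCBX8-1 alone, and FGL1 is below 0 in both.

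Counted by the edgeR quasi-likelihood test with Benjamini-Hochberg adjustment, at an adjusted p under 0.05, 4 of the 8 members were called in shCBX8-1 against control (2.47% of all 17115 genes were called, 1.34% higher and 1.13% lower), all lower: SERPINA3, FGL1, C3 and LCN2. In shCBX8-2 against control 2 were called, C3 and LCN2, both higher (12.7% of all genes, 6.03% higher and 6.64% lower). Between the shCBX8 groups 5 were called, SERPINA3, FGL1, FGB, C3 and LCN2, all higher in shCBX8-2 (9.82% of all genes, 4.05% higher and 5.77% lower). For the mean of both groups against control 2 were called, SERPINA3 and FGL1, both lower (6.79%, 3.31% higher and 3.48% lower). Since the members were chosen on these levels, nothing is read from the counts. All 8 passed the filter on low counts. The members' median log2 fold change was -0.90 in shCBX8-1 and -0.22 in shCBX8-2, against -0.01 and -0.04 over all genes tested, and both comparisons share the control libraries.

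These counts leaned on single libraries. In shCBX8-1 the count was 1, SERPINA3, without control 1 and 0 without control 2 or either shCBX8-1 library. The count between the groups was 3 without any 1 control or shCBX8-1 library, when FGL1 and FGB were no longer called and SERPINA3, C3 and LCN2 were. In shCBX8-2 it was 4 without shCBX8-2 replicate 2, and C3 and LCN2 were called without any 1 library. Both libraries of shCBX8-1 lay outside the range of control for 6 members, 1 above (28.4% of all genes) and 5 below (29%), against 57.4% in all. Both of shCBX8-2 did so for 4, of which 2 lay above (26%) and 2 below (31.4%), against 57.5%. Between the shCBX8 groups 7 members stood apart, 5 higher in shCBX8-2 (26.2%) and 2 lower (27.9%), against 54.1%.

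Levels of different genes were compared per kilobase of the leading transcript, with lengths from GENCODE 29. In control LCN2 led with 117 CPM per kilobase, followed by C3 (19.9), SERPINA3 (6.90), FGL1 (4.61), FGA (3.86), FGB (0.607), SERPINA1 (0.357) and FGG (0.124). FGL1 and FGA could not be ranked, given a spread of 2.01-fold and 1.75-fold between the control libraries. In shCBX8-1 the order was LCN2 (67.5), C3 (9.96), FGA (2.89), SERPINA3 (0.619), FGG (0.594), FGL1 (0.550), SERPINA1 (0.335) and FGB (0.112), so that FGA passed SERPINA3 and FGG passed FGB. There SERPINA3, FGG and FGL1 could not be ranked, since their 2 libraries differed 1.16-fold, 1.22-fold and 1.21-fold, and the transcript that sets the FGL1 length held 0% of its counts in that group. The transcript that sets the FGG length had 0 counts in the control and shCBX8-2 libraries. In shCBX8-2 LCN2 reached 343 and C3 47.2 CPM per kilobase.

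Transcripts were listed singly for SERPINA3, C3 and LCN2, so that no choice of isoform enters their counts. For FGA, 90.8% of estimated counts went to NM_021871, which codes for the common alpha chain, and the rest to NM_000508, the extended alpha-E form. Alpha-E took 4.06 and 20.2% of the counts of the control libraries, 17.9 and 4.07% of those of shCBX8-1, and 0 and 2.78% of those of shCBX8-2. Libraries of 1 group thus differed by as much as the groups did.

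FGG counts in control and shCBX8-2 were all assigned to NM_021870, the gamma prime form with an alternative end. In shCBX8-1, NM_000509, the common gamma-A form, took 38 of 75 counts in replicate 1 and 62 of 62 in replicate 2. The 4 FGL1 transcripts traded places from library to library: NM_004467 held 39.4 and 80.0% in control, 0% in both shCBX8-1 libraries, and 89.1 and 34.4% in shCBX8-2, while all shCBX8-1 counts went to NM_201553 in replicate 1 (49) and to NM_201552 in replicate 2 (41). These shares thus ran from 0 to 100% within 1 group, and the gene sums above do not depend on them.

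**Figure D3:**
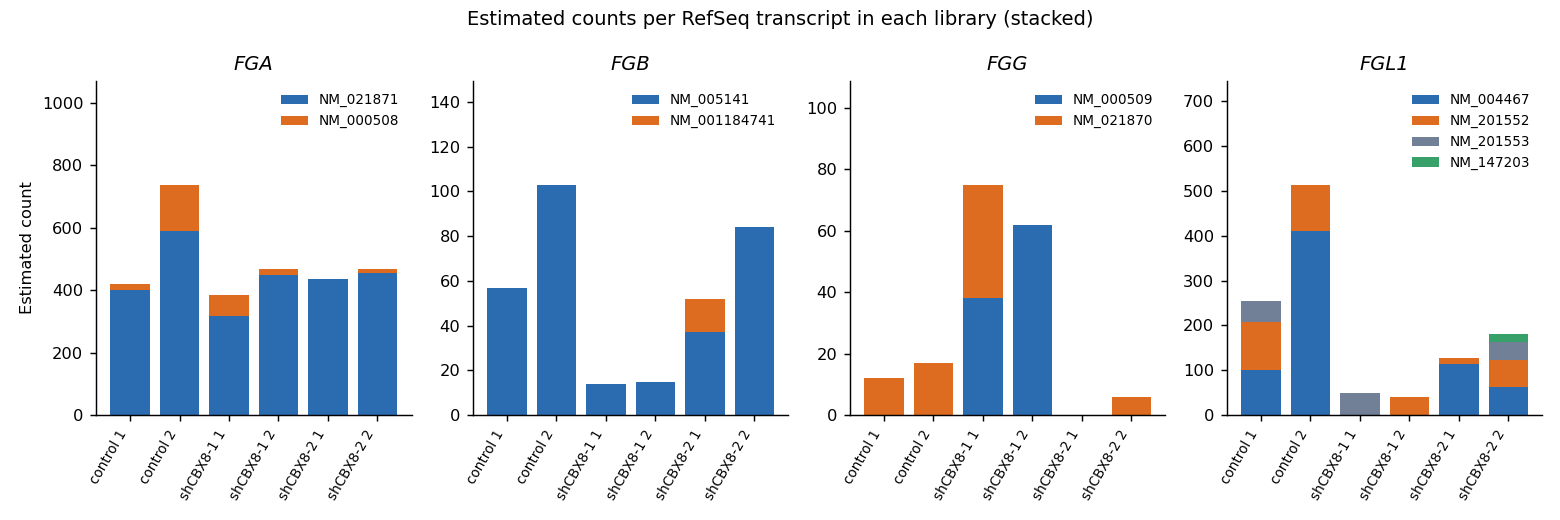
Estimated counts per RefSeq transcript (stacked bars from 0, not scaled for depth) for FGA, FGB, FGG and FGL1 in the 6 libraries. FGA is carried mainly by 1 transcript, FGG counts are concentrated in shCBX8-1, and the make-up of FGL1 differs between libraries of the same group.

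The remaining genes were counted over lists drawn up from textbook knowledge of the response, with earlier results of these data known, and each gene was tested in the fit over all genes. Of all 17115 genes, 2.47% were called in shCBX8-1 and 12.7% in shCBX8-2, in either direction. Which group had more calls depended on the fit: with only the groups compared, 2426 genes were called in shCBX8-1 and 995 in shCBX8-2. Nothing is therefore read from a list having fewer calls in 1 group than in the other. Of 26 other acute phase genes 15 could be tested. CP, the copper-carrying ferroxidase ceruloplasmin, shared the pattern of C3 and LCN2: it measured 11.6 and 16.3 CPM in control, against 6.18 and 6.25 in shCBX8-1 and then 28.8 and 27.0 in shCBX8-2. It fell in shCBX8-1 (log2 fold change -1.17 ± 0.18 (SE), edgeR adjusted p = 0.03) and rose in shCBX8-2 (1.00 ± 0.18, adjusted p = 0.0156). The groups differed by 2.17 ± 0.18 (adjusted p = 0.00175). MT2A, a metallothionein, rose in both, by 0.98 ± 0.10 (adjusted p = 0.011) and 0.73 ± 0.10 (adjusted p = 0.00758). AGT, the angiotensin precursor, was at 0.513 and 0.478 CPM in control and had 0 counts in both shCBX8-2 libraries, at least 20.9-fold lower against a floor of 3 counts over the group. It had 34 and 32 counts in control and 5 and 4 in shCBX8-1. It thus passed the filter on low counts only through control, where it was high, so its call as lower in shCBX8-2 is a description. These 3 were the list's calls against control, 1 higher and 1 lower in shCBX8-1 and 2 higher and 1 lower in shCBX8-2. The classical liver acute phase genes CRP, HP, ORM1, ORM2, HAMP and C9 were at 0 counts in all libraries.

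Epithelial defence genes held 2 more genes of this kind among 10 tested of 17. Of all genes, 2.47% were called in shCBX8-1 and 12.7% in shCBX8-2, and 0.105% were called lower in shCBX8-1 and higher in shCBX8-2. SLPI, an inhibitor of neutrophil proteases made by airway epithelium, measured 30.4 and 31.1 CPM in control, against 20.2 and 21.2 in shCBX8-1 and then 115 and 109 in shCBX8-2. It fell by 0.57 ± 0.08 in shCBX8-1 (adjusted p = 0.0275) and rose by 1.86 ± 0.09 in shCBX8-2 (adjusted p = 0.000753). PI3, the elastase inhibitor elafin, fell by 1.77 ± 0.25 (adjusted p = 0.0243) and rose by 1.03 ± 0.23 (adjusted p = 0.0327). SLC22A17, proposed as an LCN2 receptor, fell in shCBX8-2 (-1.65 ± 0.23, adjusted p = 0.00733) and was at 0.36 ± 0.22 in shCBX8-1 (adjusted p = 0.472). No other gene of the list was called against control. Of 6 genes for proteases that SERPINA3 or SERPINA1 can inhibit, ELANE and CTSG of neutrophils among them, none exceeded 1 CPM in any library.

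Of the IL-6 family and its signal transducers, 0 of 24 genes tested were called in shCBX8-1 with edgeR, beside 2.47% of all genes (4 at an unadjusted p under 0.05, and 3 called by DESeq2). In shCBX8-2, 2 of the 24 were higher and 6 lower, beside 12.7% of all genes called. JAK1, the kinase bound to the receptor, measured 225 and 209 CPM in control and 109 and 112 in shCBX8-2 (-0.98 ± 0.07, adjusted p = 0.0017). STAT3, the factor it activates, fell by 0.53 ± 0.08 (adjusted p = 0.00827). SOCS3, a STAT3 target that feeds back on the receptor, fell from 22.6 and 20.9 to 9.87 and 9.84 CPM (-1.14 ± 0.11, adjusted p = 0.0035). The ligand gene CLCF1 rose (0.71 ± 0.10, adjusted p = 0.00713). In shCBX8-1 the log2 fold changes of JAK1, STAT3, SOCS3 and CLCF1 were -0.03, -0.05, 0.13 and 0.01, and the groups differed in each (adjusted p = 0.00137, 0.0143, 0.00214 and 0.0085). LIF, the ligand of highest level, was not called against control in either group (-0.31 ± 0.07 and 0.05 ± 0.07). Levels of IL6 were at most 0.254 CPM. IL6R was at 12.1 and 13.5 CPM in control and was not called (-0.08 ± 0.17 and -0.22 ± 0.18). IL6ST, the shared receptor chain gp130, was at 23.5 CPM in shCBX8-2 replicate 1 and 67.2 in replicate 2 and was not called either.

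C/EBP factors bind many acute phase promoters. CEBPB measured 60.1 and 51.5 CPM in control, against 31.6 and 18.3 in shCBX8-1, and then 109 and 41.7 in shCBX8-2. CEBPD measured 53.2 and 53.9, 35.6 and 38.9, and 94.5 and 40.9 CPM. Both lay below control in shCBX8-1 and on either side of it in shCBX8-2, and neither was called, with log2 fold changes of -1.16 ± 0.44 (adjusted p = 0.243) and 0.43 ± 0.43 (adjusted p = 0.557) for CEBPB and -0.52 ± 0.33 and 0.34 ± 0.33 for CEBPD. CEBPA was not called (-0.22 ± 0.14 and -0.17 ± 0.14). Any link between the levels of these factors and those of LCN2 and C3 was not tested.

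Of 20 liver-type and acute phase transcription factors tested, 0 were called in shCBX8-1 with edgeR, beside 2.47% of all genes (4 at an unadjusted p under 0.05, and 1 called by DESeq2). In shCBX8-2, 5 fell, beside 12.7% of all genes called. NR5A2, a nuclear receptor of liver and gut, fell by 1.55 ± 0.18 (adjusted p = 0.00463). FOXA2 (-0.74 ± 0.18, adjusted p = 0.0382) and PPARA (-0.75 ± 0.16, adjusted p = 0.0276) followed. HNF4A, at -0.47 ± 0.15 (adjusted p = 0.186) and then -0.51 ± 0.15 (adjusted p = 0.0753) in shCBX8-2, was not called. NR3C1, the glucocorticoid receptor, was not called either (-0.21 ± 0.17 in shCBX8-2).

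**Figure D4:**
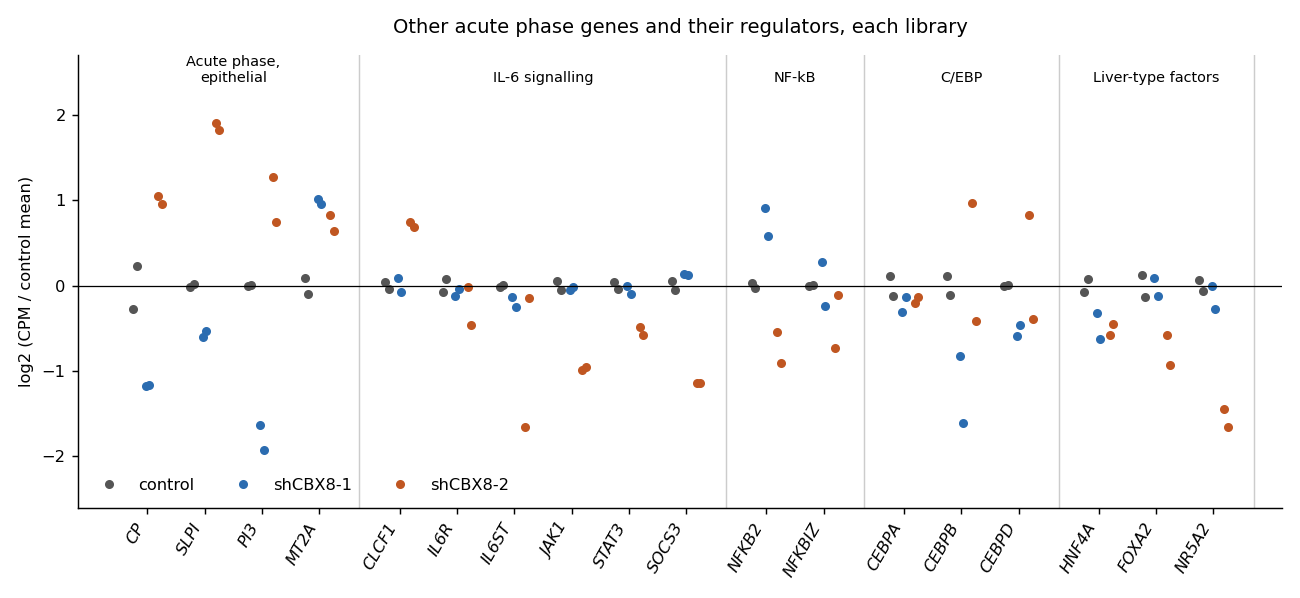
Level of other acute phase and epithelial genes and of regulators in each library, as log2 of CPM over the control mean. CP, SLPI and PI3 are below control in shCBX8-1 and above it in shCBX8-2, JAK1, STAT3 and SOCS3 are low in shCBX8-2 alone, and CEBPB and CEBPD differ widely between the 2 shCBX8-2 libraries.

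In IL-1 and NF-kB signalling, 0 of 27 genes were called in shCBX8-1 with edgeR, beside 2.47% of all genes (7 at an unadjusted p under 0.05, and 5 called by DESeq2). In shCBX8-2, 1 rose and 4 fell, beside 12.7% of all genes called. The genes of the receptor-associated kinase family moved in opposite directions there, IRAK1 by 0.42 ± 0.08 (adjusted p = 0.0189) and IRAK2 by -0.93 ± 0.15 (adjusted p = 0.0127). NFKB2, which codes for p100, was at 78.6 and 75.9 CPM in control, against 145 and 116 in shCBX8-1 and then 53.0 and 41.3 in shCBX8-2 (0.76 ± 0.15, adjusted p = 0.0572, and -0.71 ± 0.15, adjusted p = 0.0276). RELA (0.07 ± 0.08 and 0.08 ± 0.08) was not called. NFKBIZ, a co-activator at the LCN2 promoter in other cells, was not called (0.04 ± 0.25 and -0.39 ± 0.25).

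Of 33 complement genes beside C3, 20 could be tested, with 1 lower in shCBX8-1 (2.47% of all genes called) and 3 higher and 3 lower in shCBX8-2 (12.7%). CFD, the protease that starts the alternative route, rose from 21.9 and 30.1 to 65.6 and 55.1 CPM in shCBX8-2 (1.21 ± 0.17, adjusted p = 0.00774). The membrane inhibitors CD55 (0.68 ± 0.10, adjusted p = 0.00907) and CD59 (0.42 ± 0.07, adjusted p = 0.0126) rose there as well. C1S, a protease of the classical route, fell in shCBX8-2 (-0.77 ± 0.09, adjusted p = 0.00534). Clusterin, CLU, the most abundant of the list, fell in shCBX8-1 (-0.43 ± 0.07, adjusted p = 0.0336) and was at -0.10 ± 0.07 in shCBX8-2.

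Among 22 tested coagulation and fibrinolysis genes, 2 rose in shCBX8-1 (2.47% of all genes called) and 4 rose and 6 fell in shCBX8-2 (12.7%). TGM2, a transglutaminase that can cross-link fibrin, measured 317 and 377 CPM in control, against 297 and 294 in shCBX8-1 and then 948 and 833 in shCBX8-2 (1.36 ± 0.10, adjusted p = 0.00171). The clotting factor gene F5 fell from 13.2 and 14 to 2.19 and 3.02 CPM in shCBX8-2 (-2.39 ± 0.20, adjusted p = 0.00192), and PROCR, the protein C receptor, by 0.93 ± 0.09 (adjusted p = 0.00299). PLAU, the urokinase activator of plasmin, rose in both groups (1.11 ± 0.09, adjusted p = 0.00498, and 0.49 ± 0.09, adjusted p = 0.0176).

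Plasma proteins that are not raised in the acute phase were lower where called, 1 of 11 tested in shCBX8-1 (2.47% of all genes called) and 4 in shCBX8-2 (12.7%). They were VTN (-1.64 ± 0.17, adjusted p = 0.00363), APOH (-2.94 ± 0.38, adjusted p = 0.006), F12 (-1.05 ± 0.17, adjusted p = 0.0121) and APOE (-0.88 ± 0.23, adjusted p = 0.0495) in shCBX8-2, and APOE in shCBX8-1 (-1.26 ± 0.23, adjusted p = 0.0445). Of 13 genes of chain assembly and secretion, 6 rose and 1 fell in shCBX8-2, beside 12.7% of all genes called. The chaperone genes CALR (0.46 ± 0.07, adjusted p = 0.0102), HSP90B1 (0.35 ± 0.06, adjusted p = 0.017) and P4HB (0.38 ± 0.07, adjusted p = 0.0191) rose there. SEC24D, a coat subunit of export vesicles, rose in shCBX8-1 (0.56 ± 0.10, adjusted p = 0.0461) and fell in shCBX8-2 (-0.54 ± 0.10, adjusted p = 0.021). Of 6 tested serpins outside the members, SERPINB1 fell in shCBX8-2 (-0.36 ± 0.08, adjusted p = 0.0273).

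List medians of the log2 fold change, in shCBX8-1 and then shCBX8-2, were -0.40 and -0.13 for the other acute phase genes, -0.51 and 0.34 for epithelial defence, -0.11 and -0.44 for IL-6 signalling and 0.05 and -0.13 for IL-1 and NF-kB. They were -0.13 and -0.27 for the transcription factors, -0.17 and -0.23 for complement, 0.03 and -0.33 for coagulation, -0.36 and -0.37 for the other plasma proteins, 0.09 and 0.28 for assembly and secretion and -0.01 and -0.26 for the serpins, beside -0.01 and -0.04 over all genes. Few of these calls held without each library in turn. Of 19 calls on named genes in shCBX8-1, a number that like the next ones includes genes named for their likeness to a member, 0 did: 16 ended without control 1 and all 19 without control 2 or either library of shCBX8-1 (adjusted p up to 0.297). Of 44 in shCBX8-2, 7 did, those of SLPI, JAK1, TGM2, F5, PROCR and VTN and that of COL17A1 below. Without control 1, control 2, shCBX8-1 replicate 1 and shCBX8-1 replicate 2, 36, 35, 16 and 16 of the 44 ended, with adjusted p up to 0.239. Of 43 between the shCBX8 groups 9 did, SLPI, PI3, JAK1, SOCS3, TGM2 and NFKB2 among them. Leaving out a shCBX8-2 library ended at most 2 calls in any of the 3 comparisons. In a fit of the shCBX8-2 and control libraries alone, 15 of the 44 ended, those of CP, PI3, AGT, APOE, FOXA2, PPARA, HSP90B1, SEC24D and SERPINB1 among them.

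The genes nearest in pattern were sought among 11284 genes of at least 5 CPM, by the root mean square distance of log2 (CPM + 0.5) over the 6 libraries, each centred on its own mean. For C3 these were CP (distance 0.122) and SLPI (0.263), and for LCN2 SLPI (0.150) and COL17A1 (0.245), a hemidesmosome collagen. MAPK4 (0.303), an atypical MAP kinase at 10.7 and 10.7 CPM in control, against 1.21 and 1.76 in shCBX8-1 and then 20.9 and 16.6 in shCBX8-2, and TMED10 (0.615), a cargo receptor of the secretory route, were nearest to SERPINA3. FGB was nearest to STC1 (0.150) and SGK1 (0.174), and FGL1 to CLDN2 (0.325) and MTUS1 (0.420). For FGG they were HLA-B (0.164), whose counts lie largely on repeated accessions and are uncertain, and FAR2 (0.164), for FGA COCH (0.0944) and RNF4BP (0.114), and for SERPINA1 ARMC9 (0.0367) and UBR1 (0.0524). The 0.5 added to CPM shrinks the log2 differences of FGB, FGG and SERPINA1, which lie near or below 1 CPM. Their small distances therefore do not show a closer match than those of the other members. In shCBX8-1 the fitted log2 fold change was -2.43 for FGB, against -1.41 for STC1 and -1.07 for SGK1. It was 2.25 for FGG, against 0.85 for HLA-B and 1.18 for FAR2.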

How the data were processed

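Per the labels' protocols, RNA of 6 A549 libraries was taken with Trizol and prepared with standard Illumina protocols. The deposited values are expected counts, whole numbers per RefSeq transcript with no scaling to a common total. The submitters' processing notes name HISAT2 2.2.1, StringTie 2.2.1, DESeq2 1.34.0 and hg38, with no roles. Which annotation and counting step were used is not given in the sources used for this text. Of 84787 transcripts, 83963 were assigned to genes with RefSeq (GRCh38.p14) and a further 357 with GENCODE (99.4%), and counts were summed to 28452 genes. Promoter windows came from RefSeq. Results for some genes and 1 motif are not reported here.

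Genes were tested with edgeR 4.0.16 in R 4.3.3: filterByExpr (minimum count 10, total 15) kept 17115 genes, followed by TMM scaling and a quasi-likelihood fit of 3 groups over all 6 libraries, two-sided, with Benjamini-Hochberg adjustment over all genes and a threshold of 0.05. Standard errors come from the F statistic, and errors after ± beside a fold change are SE throughout. The fit had 3 residual degrees of freedom and was tested on simulated data. Named genes were the members, CBX8, 12 regulators, from each of 11 pathway lists up to 4 called against control with the smallest p and the 2 of highest level, up to 3 per marker list, and the 2 nearest in pattern to each member. Members and lists were chosen with earlier results of these data known. Alternatives were DESeq2 1.42.0, other size factors, no filter, 1 library left out, a replicate block, fits limited to the groups compared, and no repeated accessions.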

Additional observations from a re-analysis of the deposited data

Results flagged for a closer look

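For C3, LCN2 and FGG both libraries of shCBX8-1 lay on one side of control and both of shCBX8-2 on the other. The log2 fold changes were -1.0 and 1.25 for C3, -0.80 and 1.55 for LCN2, and 2.25 and -2.15 for FGG. The FGG value in shCBX8-2 ranged from -6.85 to -1.16 when 1 library was left out. In the fit over all genes C3 and LCN2 were called between the shCBX8 groups and FGG was not. Nothing is read from these calls, since the members were chosen on their levels.

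Named genes outside the members were singled out where they were called with opposite sign in the groups. Their differences are therefore given as a description. MAPK4 and HLA-B had also been named for their likeness to SERPINA3 and FGG, and CP and SLPI were nearest in pattern to C3 and LCN2. The difference, shCBX8-2 minus shCBX8-1, was 2.17 log2 for CP, 2.43 for SLPI, 2.80 for PI3, 3.66 for MAPK4, -1.11 for SEC24D and -1.35 for HLA-B. Without repeated accessions the HLA-B difference turned to 3.09 and was no longer called (edgeR adjusted p = 0.195).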

How the results depend on the processing

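Counts of genes called moved with the processing. Over the mean of both groups, shCBX8-1, shCBX8-2 and the difference between the groups they were 1162, 423, 2169 and 1681, and with the DESeq2 Wald test 2441, 1459, 3560 and 2958. With only the groups compared they were 2426 in shCBX8-1, 995 in shCBX8-2 and 638 between the groups, and with the replicate block 696, 173 and 1082 for the mean, shCBX8-1 and the difference. Same-numbered libraries did not deviate together (correlations of -0.017 to 0.046), so no shared shift was seen. Whether the numbers pair them by design is not given in the labels. Without 1 library the counts ranged from 1 to 4467 for the mean, 0 to 2327 for shCBX8-1, 139 to 5515 for shCBX8-2 and 126 to 5104 between the groups. Members called then ranged from 0 to 4 for the mean, 0 to 6 in shCBX8-1, 2 to 4 in shCBX8-2 and 3 to 6 between the groups, where 3 were also called with no filter on low counts and with only the groups compared. A lone library of a group was assumed to vary like the others. The cause of these moves was not tested.

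Signs turned for small or low values when 1 library was left out. SERPINA1 ranged from -0.51 to 0.11 for the mean and from -0.36 to 0.26 in shCBX8-1 (both positive without control 1), and was 0.02 in shCBX8-1 without its replicate 2. FGA ranged from -0.69 to 0.11 for the mean, -0.75 to 0.053 in shCBX8-1 and -0.63 to 0.17 in shCBX8-2 (positive without control 2), and from -0.0093 to 0.25 between the groups. FGB ranged from -0.55 to 0.32 in shCBX8-2, and was 0.17 without shCBX8-2 replicate 1. For the mean FGG ranged from -2.30 to 0.55 and was also below 0 without control 1 (-0.16) and shCBX8-1 replicate 1 (-0.015), and C3 ranged from -0.0068 to 0.27. HLA-B without repeated accessions stood at 4.37 in shCBX8-2 and 3.09 between the groups, and neither was called. The leading SERPINA1 transcript, itself a repeated accession, held 59.1% of the counts of the gene. Without repeated accessions another entry led with 73.7% of the few counts left, 14 counts, all from shCBX8-2 replicate 1. Within 100 bases before the start, 2.30, 1.40, 10.5, 0.607, 0.217, 1.14, 1.18 and 5.00% of windows held the motifs, in the order in which the report lists them. FGB, FGG and SERPINA1 rest on at most 103 counts a library, which limits what can be told of them.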

Other observations

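Beside C3, LCN2, CP, SLPI, PI3 and MAPK4, the genes called lower in shCBX8-1 and higher in shCBX8-2 were 12 others, named after their values were seen. MUC5AC, a gel-forming airway mucin, had the widest swing of the 12, with means of 56.2 (control), 23.2 (shCBX8-1) and 293 CPM (shCBX8-2). The growth factor binding protein gene IGFBP3 (1196, 703 and 1614 CPM) and the oxygen sensor gene EGLN3 (18.5, 11.3 and 26.2 CPM) were among them, as were PGK1, SMOX, TSC22D1, RAB31, SRPRA, TOMM34 and AP2M1.

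The tested protein-coding genes on either side of each member were read as well, chosen after values were seen. Those of LCN2 were not called against control, PTGES2 at -0.07 and 0.32 and BBLN at 0.00 and 0.03 in shCBX8-1 and shCBX8-2, nor were GPR108 beside C3 (-0.18 and -0.14) and PLRG1 beside FGB (0.11 and -0.03). MTUS1, next to FGL1, measured 76.6 CPM in control, 26.4 in shCBX8-1 and 60.9 in shCBX8-2, with log2 fold changes of -1.54 ± 0.12 and -0.33 ± 0.11 (SE), while PCM1 on the other side was at 0.06 and 0.17. MTUS1 was also the gene second nearest to FGL1 in pattern, so its values are a description. The other neighbours had few counts and were not called against control. TNFSF14, on the other side of C3, had 21 and 71 counts in the control libraries, against 11 and 8 for shCBX8-1, and then 139 and 48 for shCBX8-2. Its log2 fold changes were -2.23 ± 0.82 and 1.10 ± 0.74 (SE), with the same signs as those of C3, and the difference between the groups, 3.33 ± 0.83, was not called (edgeR adjusted p = 0.0522). SERPINA5, between SERPINA1 and SERPINA3 among the tested genes, had 22 counts in each control library, 0 in both libraries of shCBX8-1, and then 20 and 0 for shCBX8-2. GSC beyond SERPINA3, SERPINA6 beside SERPINA1 and LRAT beyond FGG had at most 132 counts in a library.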
